A study of Mus musculus with 12 samples.

Results

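The genes described here are 59 genes of DNA replication and mitosis, 29 that act in S phase, when DNA is copied, and 30 that act in G2 and mitosis (G2/M), when the copies are separated. They were chosen by gene symbol from a list of such genes and not by their measured changes, though earlier results of these data were known. Each was read from its probe set with the highest mean over the 12 arrays. Of the 59 genes, 58 were matched to a probe set with a single gene symbol, and all 58 were bright enough to enter the test, which covered 10916 of the 18193 genes measured. Ccnb1, which encodes cyclin B1, is not analysed here. RNA was measured on 1-colour arrays in B16-F10 cells, an established pigmented mouse melanoma line, 24 h after transfection. The design asks which genes are regulated by FoxD3, a transcription factor of the forkhead family that marks early neural crest cells. There were 4 arrays of cells given FoxD3-VP16, in which the repression domain at the C-terminal end of FoxD3 was exchanged for the transactivation domain of the viral protein VP16. Another 4 arrays were of cells given FoxD3, and 4 were of cells given the vector with no insert. In all 12 the vector was pMES, whose chick beta-actin promoter drives the insert together with EGFP, read from the same transcript through an internal ribosome entry site. Both inserts are chicken sequences, so the levels reached are those of a transfected foreign gene in cells sorted for EGFP. Whether the replicates are separate cultures is not given in the labels, so the p-values reflect the spread among these arrays alone, part or all of which could be technical.

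Each vector had 1 array of each replicate number from 1 to 4, and arrays of the same number deviated together from their group means (correlations across genes of 0.37 to 0.67 in 12 pairs of arrays). Levels are log2(intensity + 16) after quantile normalization, and a gene was called where limma gave an adjusted p under 0.05 over all 10916 genes. The numbers were taken to pair the arrays from these correlations alone. Arrays joining numbers 3 and 4 also deviated together (0.37 to 0.54 in 6 pairs). The result with the replicate number as a block therefore stands beside the result without it. The 3 arrays numbered 1 differed from the rest before any gene was compared: their hybridization controls had a mean log2 level of 14.7 ± 0.13 (SD, n = 3), against 11.9 to 13.0 on the arrays of the other numbers. All 7 melanocyte markers examined (Dct, Tyrp1, Pmel, Mlana, Tyr, Sox10 and Mitf) were among the tested genes, with a mean log2 level of 13.9 to 14.4 on the 12 arrays, and none of 5 keratinocyte or 5 endothelial markers was bright enough to be tested. Of 8 fibroblast markers 4 were tested (Col1a1, Col1a2, Pdgfra and Pdgfrb), and 2 of 6 leukocyte markers were (Cd68 and Cd74). The summed deposited intensity of the fibroblast markers was 821 to 1156 with FoxD3-VP16, 1097 to 1385 with FoxD3 and 446 to 632 with the empty vector, and its part in the results below was not tested.

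A cell prepares to copy its DNA by loading a ring of Mcm proteins onto each replication origin, a step called licensing that needs the origin recognition complex, Cdc6 and Cdt1. In S phase the ring is activated as a helicase, polymerases and their clamp follow it, and the enzymes of nucleotide synthesis supply the building blocks. At the end of G2 the kinase Cdk1 with its cyclins starts mitosis, kinetochores and motor proteins attach and separate the chromosomes, and the anaphase-promoting complex ends the process. Transcription of the first set is switched on by E2F factors, and that of the second set peaks later through the MuvB complex, which binds CHR elements, with B-Myb and the forkhead factor Foxm1. Both sets are used as a measure of how much of a population is dividing. In RNA from a bulk population, fewer cells in a phase of the cycle and less RNA per cell cannot be told apart.

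Some promoters of the genes carry the letters by which these 2 programs are known. Shown are 4 of them, from genes that differ between vectors or replicate numbers below. RefSeq promoters (build GRCm38.p6, 250 bases before to 50 after the start) were matched for 49 of the 59 genes, with 55 start sites. Capitals mark matches, on either strand, to the CCAAT box (CCAAT), to the CHR element (TTTGAA) and to E2F sites (TTTCGCGC, TTTGGCGC, TTTCCCGC or TTTGCCGC). Sequences are 5′ to 3′ on the strand of the gene.
Cdt1 promoter, chr8:122567765-122568064, plus strand: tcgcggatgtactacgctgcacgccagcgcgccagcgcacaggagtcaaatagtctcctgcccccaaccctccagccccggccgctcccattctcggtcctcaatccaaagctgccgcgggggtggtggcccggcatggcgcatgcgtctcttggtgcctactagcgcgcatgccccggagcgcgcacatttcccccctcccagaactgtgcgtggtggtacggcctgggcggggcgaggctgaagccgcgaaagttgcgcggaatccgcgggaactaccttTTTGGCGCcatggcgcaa
Mcm6 promoter, chr1:128359656-128359955, minus strand: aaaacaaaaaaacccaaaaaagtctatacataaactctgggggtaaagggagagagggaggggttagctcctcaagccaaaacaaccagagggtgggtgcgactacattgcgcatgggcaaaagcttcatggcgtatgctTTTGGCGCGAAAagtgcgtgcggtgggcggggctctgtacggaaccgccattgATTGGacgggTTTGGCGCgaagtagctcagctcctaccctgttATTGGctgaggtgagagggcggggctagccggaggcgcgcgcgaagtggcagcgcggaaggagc
Cdc20 promoter, chr4:118437294-118437593, minus strand: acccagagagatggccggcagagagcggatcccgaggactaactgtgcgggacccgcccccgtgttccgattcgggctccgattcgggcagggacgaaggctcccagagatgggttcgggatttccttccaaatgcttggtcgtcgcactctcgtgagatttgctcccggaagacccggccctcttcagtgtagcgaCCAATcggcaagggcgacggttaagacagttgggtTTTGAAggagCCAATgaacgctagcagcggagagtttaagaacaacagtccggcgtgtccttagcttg
Ccnb2 promoter, chr9:70421505-70421804, minus strand: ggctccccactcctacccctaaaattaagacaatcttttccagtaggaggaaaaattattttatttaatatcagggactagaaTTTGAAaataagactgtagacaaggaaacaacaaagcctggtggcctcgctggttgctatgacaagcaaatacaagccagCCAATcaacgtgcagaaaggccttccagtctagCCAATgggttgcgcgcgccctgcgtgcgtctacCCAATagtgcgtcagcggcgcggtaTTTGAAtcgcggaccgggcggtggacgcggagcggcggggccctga

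The 2 S phase promoters shown hold E2F sites and the 2 G2/M promoters shown hold CCAAT boxes and CHR elements. Among the S phase genes called with the block but not shown, Mcm10 and Rrm1 have no E2F site in this window and Pola1 has 1. Cdt1 has 1 E2F site, which starts 33 bases after the start, and no CCAAT box or CHR element. Mcm6 has 3 E2F sites, 2 of which overlap on opposite strands, and 2 CCAAT boxes. Cdc20 has 2 CCAAT boxes and 1 CHR element 18 bases before the start, and Ccnb2 has 3 CCAAT boxes and 2 CHR elements. Over all matched start sites, an E2F site lay in 36.7% of the S phase promoters, 4% of the G2/M promoters and 2.26% of the 32851 promoters in the table. The CHR element lay in 10% of the S phase promoters, 72% of the G2/M promoters and 17.9% of all, and the CCAAT box in 63.3%, 84% and 37.4% in that order. The forkhead core letters TGTTTAC or TGTTTGT, a search added after the data had been seen, lay in 5.45% of the promoters of the genes described here and 9.95% of all promoters. A match is a description of the letters in this window and not evidence of binding.

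In B16-F10 cells 24 h after transfection, the replication and mitosis genes differed little from their levels with the empty vector when averaged over the 4 replicate numbers. The median log2 change with FoxD3-VP16 against the empty vector was -0.01 for the 29 S phase genes and -0.04 for the 29 G2/M genes, against -0.02 for all tested genes. With FoxD3 against the empty vector the medians were -0.12 and -0.11, against -0.0041 for all tested genes. FoxD3-VP16 against FoxD3, which shares the FoxD3 arrays with the comparison before it, gave 0.11 and 0.10, against -0.03 for all. The largest change was that of Cdt1, 1.62-fold lower with FoxD3-VP16 than with FoxD3.

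Without the block, 0 of the 58 genes were called with FoxD3-VP16 against the empty vector, where 0.595% of all tested genes were called. Of the 58, 1 had an unadjusted limma p under 0.05, against 1129 of all 10916 tested genes. For FoxD3 against the empty vector 0 of 58 were called, against 4.01% of all tested genes. Again 1 of the 58 had an unadjusted limma p under 0.05, against 1762 of all 10916. Between FoxD3-VP16 and FoxD3, 1 of 58 (1.72%) was called, against 9.57% of all. With the block the counts were 2 of 58 (3.45%) for FoxD3-VP16 against the empty vector, both lower, where 11.1% of all genes were called (5.73% higher and 5.41% lower). They were 5 of 58 (8.62%) for FoxD3 against the empty vector, 1 higher and 4 lower, where 21.0% of all genes were called (11.8% higher and 9.21% lower). They were 5 of 58 for FoxD3-VP16 against FoxD3, 3 higher and 2 lower, where 32.0% of all genes were called (14.6% higher and 17.5% lower). The share of the genes called thus lay under that of all tested genes in each comparison and both fits. Where 0.595% of all tested genes were called, a count of 0 of 58 does not set these genes apart. The other counts without the block are small as well.

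**Figure D1:**
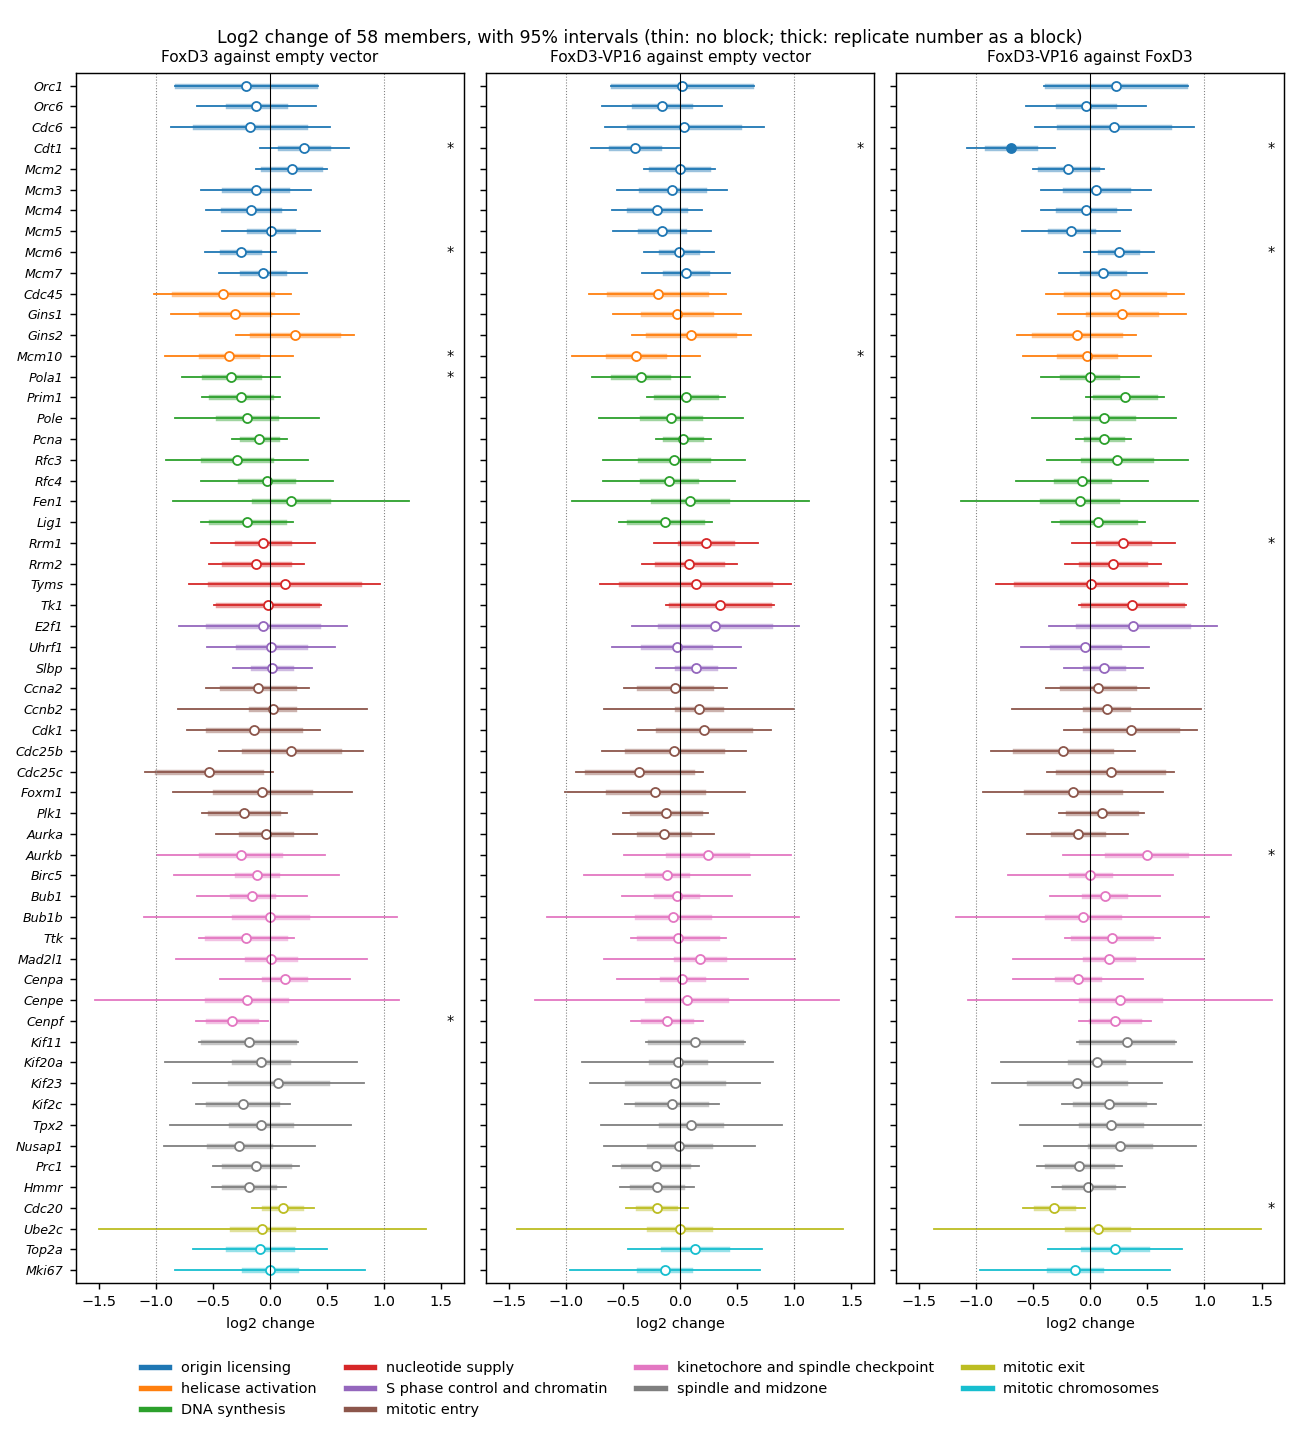
Each line is 1 of the 58 genes, ordered by role, and the 3 panels are the comparisons. The horizontal axis is the log2 change, points are estimates, thin and thick lines are 95% intervals without and with the replicate number as a block, filled points are genes called without the block and stars mark those called with it. Cdt1 is the one filled point, at -0.70 between FoxD3-VP16 and FoxD3, and the other estimates lie between -0.54 and 0.50.

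How precisely a change was estimated can be read from the intervals, which are not adjusted for the number of genes tested. An interval can exclude 0 without a call, as for Cdc25c with FoxD3 against the empty vector (-0.99 to -0.08 with the block). With the block the median half-width of the 95% interval of a log2 change was 0.27 over the 58 genes, and without it 0.56. With the block all 58 intervals lay within 1 on the log2 scale either way, a change of 2-fold, in each of the 3 comparisons. Within the narrower limit of 0.5 lay 43 of 58 for FoxD3-VP16 against the empty vector, 33 for FoxD3 against the empty vector and 37 for FoxD3-VP16 against FoxD3. Without the block, intervals within 1 either way were those of 51 of 58 genes with FoxD3-VP16 against the empty vector (71.7% of all tested genes), 52 with FoxD3 against the empty vector (66.6% of all) and 51 between FoxD3-VP16 and FoxD3 (62.0% of all).

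The licensing factors held the largest difference. Orc1 and Orc6 are subunits of the origin recognition complex, Cdc6 and Cdt1 load the helicase, and Mcm2 to Mcm7 form it. Log2 changes with FoxD3-VP16 against the empty vector were 0.02 for Orc1, -0.16 for Orc6, 0.04 for Cdc6, -0.39 for Cdt1, -0.0038 for Mcm2, -0.07 for Mcm3, -0.20 for Mcm4, -0.16 for Mcm5, -0.01 for Mcm6 and 0.05 for Mcm7. With FoxD3 against the empty vector they were -0.21 for Orc1, -0.12 for Orc6, -0.17 for Cdc6, 0.30 for Cdt1, 0.19 for Mcm2, -0.12 for Mcm3, -0.17 for Mcm4, 0.01 for Mcm5, -0.26 for Mcm6 and -0.06 for Mcm7. Between FoxD3-VP16 and FoxD3 they were 0.23 for Orc1, -0.04 for Orc6, 0.21 for Cdc6, -0.70 for Cdt1, -0.19 for Mcm2, 0.05 for Mcm3, -0.04 for Mcm4, -0.17 for Mcm5, 0.25 for Mcm6 and 0.11 for Mcm7. Cdt1 alone of these 10 was called without the block, and Cdt1 and Mcm6 with it.

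Cdt1, the loading factor that cells destroy or block after licensing so that DNA is copied once, was lower with FoxD3-VP16 than with FoxD3. In the order of replicate numbers 1 to 4, which holds for every list of array values here, Cdt1 had log2 levels of 12.23, 12.19, 12.59 and 12.68 in FoxD3-VP16 cells, 12.91, 12.77, 13.37 and 13.42 in FoxD3 cells and 12.51, 12.93, 12.95 and 12.87 in empty vector cells. Every FoxD3-VP16 array lay below every FoxD3 array, and the empty vector arrays overlapped both groups. In deposited intensity the same arrays read 4789, 4696, 5936 and 6437 with FoxD3-VP16, 8429, 6987, 9910 and 10075 with FoxD3 and 6141, 7852, 7555 and 7080 with the empty vector. The mean log2 levels were 12.42 ± 0.25 with FoxD3-VP16 and 13.12 ± 0.33 with FoxD3 (SD, n = 4 each), a log2 change of -0.70 (SE 0.18, 95% interval -1.08 to -0.31, limma adjusted p = 0.0277). Within the replicate numbers the differences were -0.68, -0.58, -0.78 and -0.74, lower in 4 of 4, and with the block the adjusted p was 0.000157.

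Against the empty vector, whose mean for Cdt1 was 12.82 ± 0.21, the level of Cdt1 lay on opposite sides for the 2 constructs. It was lower with FoxD3-VP16 in 4 of 4 numbers (log2 change -0.39, limma adjusted p = 0.471 without and 0.0223 with the block). It was higher with FoxD3 in 3 of 4 numbers, the exception being number 2 at -0.16 (log2 change 0.30, limma adjusted p = 0.46 without and 0.043 with the block). Without the block, both values against the empty vector were called only with array quality weights. That fit gave -0.32 with FoxD3-VP16 (limma adjusted p = 0.0411) and 0.46 with FoxD3 (limma adjusted p = 0.00232). It called 31.7% and 38.4% of all tested genes in these comparisons. The calls with the block rest on single arrays. With the block, leaving out 1 of the 12 arrays at a time ended the call in 4 of 12 cases for FoxD3-VP16 (arrays 2, 3 and 4 of FoxD3-VP16 and array 3 of the empty vector, adjusted p up to 0.0729). For FoxD3 it did so in 8 of 12 (arrays 1, 3 and 4 of FoxD3 and of the empty vector and arrays 2 and 4 of FoxD3-VP16, adjusted p up to 0.17). The difference between the constructs held with the block in 12 of 12 such cases (log2 change -0.79 to -0.65, limma adjusted p = 1.14e-05 to 0.0015). Without the block it lost its call when array 3 or 4 of FoxD3 or array 1 or 2 of FoxD3-VP16 was left out (adjusted p up to 0.0996).

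A second bright probe set for Cdt1, with a mean log2 level of 11.05, gave changes of -0.27 with FoxD3-VP16 and 0.35 with FoxD3 against the empty vector and -0.62 between the constructs. Another, with a mean of 4.62 and under the brightness limit, gave 0.34, -0.22 and 0.55 for the same comparisons. When all 3 were averaged, the change between the constructs was -0.25 and was not called (limma adjusted p = 0.284 without and 0.122 with the block).

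Mcm6, a subunit of the helicase ring, had log2 levels of 12.14, 12.17, 12.50 and 12.42 in FoxD3-VP16 cells, 11.85, 11.88, 12.23 and 12.28 in FoxD3 cells and 12.17, 12.30, 12.51 and 12.30 in empty vector cells. Within each number its FoxD3 array was the lowest of the 3, with differences of -0.42 to -0.02 from the empty vector array, although the groups overlapped. It was higher with FoxD3-VP16 than with FoxD3 (log2 change 0.25, limma adjusted p = 0.334 without and 0.0211 with the block) and FoxD3 was below the empty vector (log2 change -0.26, limma adjusted p = 0.413 without and 0.0246 with the block). Leaving out single arrays ended these calls in 5 of 12 and 6 of 12 cases (adjusted p up to 0.0785 and 0.0854), among them arrays 1, 2 and 3 of FoxD3 in both.

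Mcm2, another subunit of the ring, had log2 levels of 12.34, 11.72, 12.02 and 12.22 in FoxD3-VP16 cells, 12.42, 12.13, 12.28 and 12.24 in FoxD3 cells and 12.01, 12.28, 12.04 and 11.98 in empty vector cells. Its level with FoxD3-VP16 was below that with FoxD3 in 4 of 4 numbers, but by less than the spread, and it was not called in any comparison in either fit. Cdc6, which recruits Cdt1 to origins, had log2 levels of 10.0, 8.62, 10.06 and 10.28 in FoxD3-VP16 cells, 9.86, 8.95, 9.62 and 9.70 in FoxD3 cells and 9.97, 9.76, 9.49 and 9.59 in empty vector cells. The arrays numbered 2 were the lowest for both constructs, and the groups overlapped without a call.

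**Figure D2:**
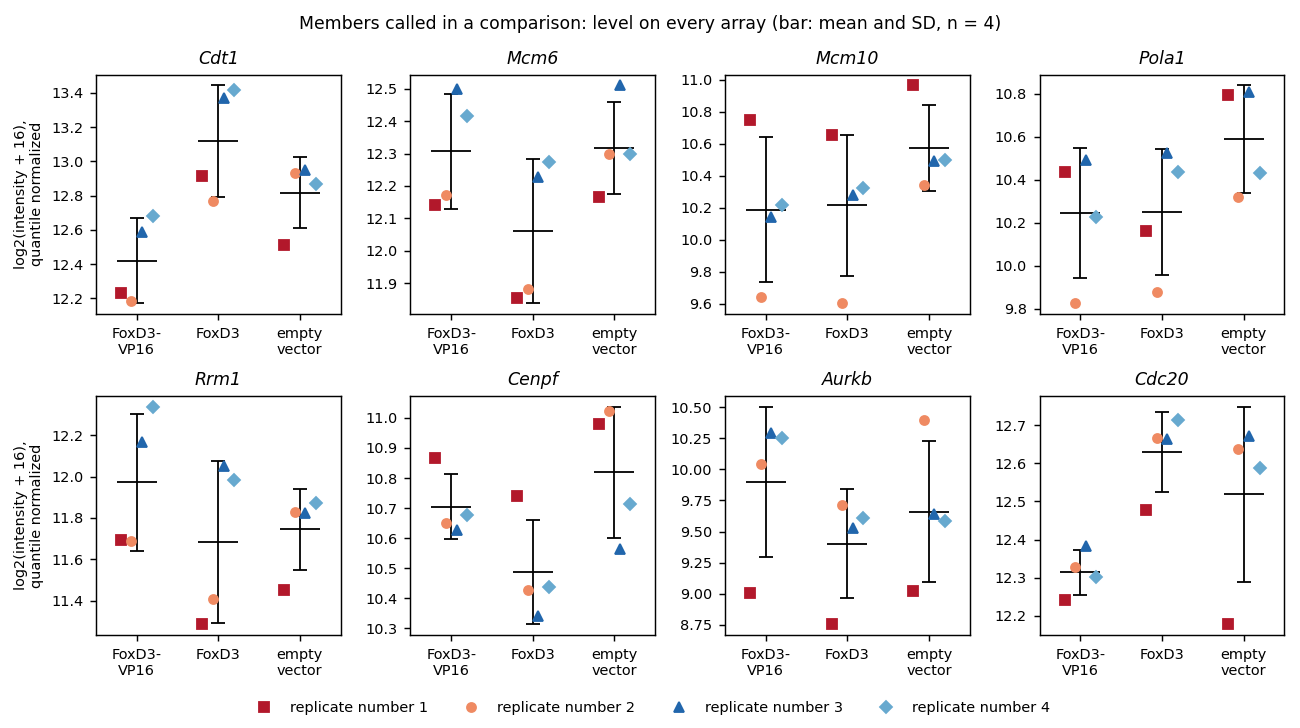
Each panel is 1 gene called in a comparison without or with the block. The vertical axis is the log2 level, the points are the 12 arrays marked by replicate number, and the bars give the mean and SD of the 4 arrays of a group. Cdt1 and Cdc20 are the 2 panels in which all FoxD3-VP16 arrays lie below all FoxD3 arrays.

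The helicase activators Cdc45, Gins1, Gins2 and Mcm10 join the loaded ring and start unwinding. Against the empty vector, FoxD3-VP16 gave log2 changes of -0.20 for Cdc45, -0.03 for Gins1, 0.10 for Gins2 and -0.39 for Mcm10. For FoxD3 against the empty vector the changes were -0.41 for Cdc45, -0.31 for Gins1, 0.22 for Gins2 and -0.36 for Mcm10. FoxD3-VP16 against FoxD3 gave 0.22 for Cdc45, 0.28 for Gins1, -0.12 for Gins2 and -0.03 for Mcm10. Mcm10 was called with the block against the empty vector for both constructs, and the other 3 were not called in either fit.

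Mcm10, a scaffold that activates the helicase, had log2 levels of 10.75, 9.64, 10.14 and 10.22 in FoxD3-VP16 cells, 10.66, 9.60, 10.28 and 10.32 in FoxD3 cells and 10.96, 10.35, 10.49 and 10.50 in empty vector cells. The empty vector array was the highest of its number in 4 of 4, and the arrays numbered 1 were the highest of each group, so the groups overlapped. Its log2 change was -0.39 with FoxD3-VP16 (limma adjusted p = 0.711 without and 0.0419 with the block) and -0.36 with FoxD3 (limma adjusted p = 0.577 without and 0.0367 with the block), both against the same 4 empty vector arrays. Leaving out single arrays ended the call in 9 of 12 cases for FoxD3-VP16 (adjusted p up to 0.123) and in 8 of 12 for FoxD3 (adjusted p up to 0.128), with each of the 4 empty vector arrays among them in both. The change between the constructs was -0.03.

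The genes of DNA synthesis include the primase and polymerase alpha subunits Prim1 and Pola1, the leading-strand polymerase Pole, the clamp Pcna with its loaders Rfc3 and Rfc4, and Fen1 and Lig1, which process and seal the lagging strand. FoxD3-VP16 against the empty vector gave log2 changes of 0.05 for Prim1, -0.34 for Pola1, -0.08 for Pole, 0.03 for Pcna, -0.05 for Rfc3, -0.10 for Rfc4, 0.09 for Fen1 and -0.13 for Lig1. FoxD3 against the empty vector gave -0.26 for Prim1, -0.34 for Pola1, -0.20 for Pole, -0.09 for Pcna, -0.29 for Rfc3, -0.03 for Rfc4, 0.18 for Fen1 and -0.20 for Lig1. For FoxD3-VP16 against FoxD3 the changes were 0.31 for Prim1, -0.0046 for Pola1, 0.12 for Pole, 0.12 for Pcna, 0.24 for Rfc3, -0.07 for Rfc4, -0.09 for Fen1 and 0.07 for Lig1. Pola1 was called with the block in 1 comparison, and the 7 others were not called in either fit.

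Pola1, the catalytic subunit of the polymerase that starts each new strand, had log2 levels of 10.44, 9.83, 10.49 and 10.23 in FoxD3-VP16 cells, 10.16, 9.88, 10.53 and 10.44 in FoxD3 cells and 10.79, 10.32, 10.81 and 10.43 in empty vector cells. The FoxD3 array lay below the empty vector array within numbers 1 to 3 and level with it within number 4 (0.0038), and the groups overlapped. Its log2 change with FoxD3 was -0.34 (limma adjusted p = 0.45 without and 0.0458 with the block), and leaving out single arrays ended the call in 9 of 12 cases, all but array 4 of FoxD3, array 1 of FoxD3-VP16 and array 4 of the empty vector (adjusted p up to 0.173). With FoxD3-VP16 it was lower than with the empty vector in 4 of 4 numbers (log2 change -0.34), without a call in either fit (limma adjusted p = 0.633 without and 0.0644 with the block).

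Prim1, the primase subunit, was the member of this group whose FoxD3-VP16 arrays (11.45 to 11.77) all lay above its FoxD3 arrays (11.05 to 11.44), with a log2 change of 0.31 and no call (limma adjusted p = 0.274 without and 0.072 with the block). Pcna, the sliding clamp and a standard marker of S phase, had log2 levels of 14.08, 14.12, 14.27 and 14.44 in FoxD3-VP16 cells, 13.92, 14.13, 14.20 and 14.18 in FoxD3 cells and 14.14, 14.34, 14.19 and 14.14 in empty vector cells. The 12 arrays spanned 13.92 to 14.44 and the 3 groups overlapped, with no call in any comparison.

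Nucleotides for DNA are made by ribonucleotide reductase, of which Rrm1 is the large and Rrm2 the small subunit, and by thymidylate synthase (Tyms) and thymidine kinase (Tk1). Log2 changes with FoxD3-VP16 against the empty vector were 0.23 for Rrm1, 0.08 for Rrm2, 0.13 for Tyms and 0.35 for Tk1. With FoxD3 against the empty vector they were -0.06 for Rrm1, -0.12 for Rrm2, 0.13 for Tyms and -0.02 for Tk1. Between FoxD3-VP16 and FoxD3 they were 0.29 for Rrm1, 0.20 for Rrm2, 0.01 for Tyms and 0.37 for Tk1. All 4 values with FoxD3-VP16 were above 0 against either group, but Rrm1 alone was called, with the block and against FoxD3.

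Rrm1 had log2 levels of 11.69, 11.69, 12.17 and 12.34 in FoxD3-VP16 cells, 11.29, 11.41, 12.05 and 11.98 in FoxD3 cells and 11.45, 11.83, 11.82 and 11.87 in empty vector cells. The FoxD3-VP16 array exceeded the FoxD3 array in 4 of 4 numbers, by 0.11 to 0.41, while the groups overlapped. The log2 change was 0.29 (limma adjusted p = 0.469 without and 0.0485 with the block). Leaving out single arrays ended the call in 7 of 12 cases, namely arrays 1, 2 and 4 of FoxD3, arrays 1, 3 and 4 of FoxD3-VP16 and array 1 of the empty vector (adjusted p up to 0.163).

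Rrm2, the subunit whose level follows S phase, had log2 levels of 13.50, 12.98, 13.72 and 13.57 in FoxD3-VP16 cells, 13.35, 12.78, 13.43 and 13.42 in FoxD3 cells and 13.70, 13.39, 13.21 and 13.15 in empty vector cells. Its FoxD3-VP16 array was above its FoxD3 array in 4 of 4 numbers and the groups overlapped, with no call. Tk1 differed in the same direction in 4 of 4 numbers (0.12 to 0.49) and was not called either (limma adjusted p = 0.35 without and 0.18 with the block).

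E2f1, the transcription factor that switches on S phase genes, Uhrf1, which carries DNA methylation over to new strands, and Slbp, which binds histone mRNA, form the last S phase group. Against the empty vector, FoxD3-VP16 gave log2 changes of 0.31 for E2f1, -0.03 for Uhrf1 and 0.14 for Slbp. For FoxD3 against the empty vector the changes were -0.06 for E2f1, 0.01 for Uhrf1 and 0.02 for Slbp. FoxD3-VP16 against FoxD3 gave 0.37 for E2f1, -0.04 for Uhrf1 and 0.12 for Slbp. None of the 3 was called in either fit.

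E2f1 itself had log2 levels of 9.07, 7.75, 8.10 and 7.92 in FoxD3-VP16 cells, 8.17, 7.47, 7.65 and 8.06 in FoxD3 cells and 8.61, 7.79, 8.01 and 7.19 in empty vector cells. The array numbered 1 was the highest of each group, at 9.07, 8.17 and 8.61, and the groups overlapped. Between the constructs its log2 change was 0.37, with a 95% interval from -0.11 to 0.85 with the block. A second bright probe set of E2f1, with a mean log2 level of 7.39, gave -0.20 between the constructs. With FoxD3-VP16 against the empty vector it gave -0.27, where the brightest gave 0.31.

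The genes of mitotic entry are Cdk1 and its cyclins Ccna2 and Ccnb2, the activating phosphatases Cdc25b and Cdc25c, the kinases Plk1 and Aurka, and Foxm1, the forkhead factor that drives transcription of G2/M genes. FoxD3-VP16 against the empty vector gave log2 changes of 0.21 for Cdk1, -0.04 for Ccna2, 0.16 for Ccnb2, -0.05 for Cdc25b, -0.36 for Cdc25c, -0.13 for Plk1, -0.14 for Aurka and -0.22 for Foxm1. FoxD3 against the empty vector gave -0.14 for Cdk1, -0.11 for Ccna2, 0.02 for Ccnb2, 0.19 for Cdc25b, -0.54 for Cdc25c, -0.23 for Plk1, -0.03 for Aurka and -0.07 for Foxm1. For FoxD3-VP16 against FoxD3 the changes were 0.35 for Cdk1, 0.07 for Ccna2, 0.14 for Ccnb2, -0.24 for Cdc25b, 0.18 for Cdc25c, 0.10 for Plk1, -0.11 for Aurka and -0.15 for Foxm1. None of the 8 was called in either fit.

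Cdc25c had the most negative of these values, -0.54 with FoxD3 against the empty vector (limma adjusted p = 0.334 without and 0.0935 with the block). Within the numbers the differences were -1.33, -0.52, -0.42 and 0.13, so that number 1 carried most of the change. A second bright probe set of Cdc25c gave 0.16 in this comparison and 0.25 with FoxD3-VP16 against the empty vector. Cdk1, the mitotic kinase, had log2 levels of 11.65, 12.36, 12.41 and 12.48 in FoxD3-VP16 cells, 11.52, 12.09, 11.91 and 11.97 in FoxD3 cells and 11.91, 12.87, 11.64 and 11.63 in empty vector cells. Its FoxD3-VP16 array exceeded its FoxD3 array in 4 of 4 numbers, while the empty vector held both the highest array (number 2, 12.87) and levels near the lowest. Its log2 change between the constructs was 0.35, without a call (limma adjusted p = 0.499 without and 0.168 with the block).

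Foxm1 had log2 levels of 7.79, 8.30, 9.27 and 9.45 in FoxD3-VP16 cells, 8.07, 8.90, 9.21 and 9.24 in FoxD3 cells and 8.65, 8.78, 9.25 and 9.01 in empty vector cells. The groups overlapped, and the array numbered 1 was the lowest of each. Further bright probe sets of Foxm1 gave 0.10 and 0.08 with FoxD3-VP16 against the empty vector, where the brightest gave -0.22. Between the constructs they gave 0.13 and 0.14, where the brightest gave -0.15. Plk1, a kinase of mitotic entry and spindle assembly, had log2 levels of 9.75, 9.69, 9.96 and 10.07 in FoxD3-VP16 cells, 9.66, 9.39, 9.94 and 10.09 in FoxD3 cells and 9.90, 10.19, 9.93 and 9.97 in empty vector cells. Its 12 arrays spanned 9.39 to 10.19 and the groups overlapped. Ccnb2, cyclin B2, had log2 levels of 10.63, 11.72, 11.89 and 11.89 in FoxD3-VP16 cells, 10.31, 11.68, 11.81 and 11.77 in FoxD3 cells and 10.55, 11.69, 11.60 and 11.65 in empty vector cells. Within each group the array numbered 1 stood over 1 log2 unit below the other 3, which lay together.

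The kinetochore and checkpoint genes are Aurkb and Birc5 of the chromosomal passenger complex, the checkpoint proteins Bub1, Bub1b, Ttk and Mad2l1, and the centromere proteins Cenpa, Cenpe and Cenpf. Log2 changes with FoxD3-VP16 against the empty vector were 0.24 for Aurkb, -0.11 for Birc5, -0.03 for Bub1, -0.06 for Bub1b, -0.02 for Ttk, 0.17 for Mad2l1, 0.02 for Cenpa, 0.06 for Cenpe and -0.11 for Cenpf. With FoxD3 against the empty vector they were -0.26 for Aurkb, -0.12 for Birc5, -0.16 for Bub1, 0.0033 for Bub1b, -0.21 for Ttk, 0.01 for Mad2l1, 0.13 for Cenpa, -0.20 for Cenpe and -0.33 for Cenpf. Between FoxD3-VP16 and FoxD3 they were 0.50 for Aurkb, 0.0014 for Birc5, 0.13 for Bub1, -0.07 for Bub1b, 0.19 for Ttk, 0.16 for Mad2l1, -0.11 for Cenpa, 0.26 for Cenpe and 0.22 for Cenpf. Aurkb and Cenpf were each called with the block in 1 comparison, and no gene of the 9 was called without it.

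Aurkb, the kinase that corrects faulty attachments, had log2 levels of 9.0, 10.04, 10.29 and 10.26 in FoxD3-VP16 cells, 8.75, 9.72, 9.53 and 9.61 in FoxD3 cells and 9.02, 10.40, 9.64 and 9.58 in empty vector cells. FoxD3-VP16 arrays exceeded FoxD3 arrays by 0.25, 0.33, 0.76 and 0.64 within the numbers, and the groups overlapped because the arrays numbered 1 were low in all 3. The log2 change was 0.50 (limma adjusted p = 0.439 without and 0.0307 with the block). Leaving out any 1 FoxD3 array, or array 3 or 4 of FoxD3-VP16, ended the call (adjusted p up to 0.128), and a second bright probe set, used when those marked _x_at for possible cross-hybridization were left out, gave 0.35 without a call (adjusted p = 0.237 with the block).

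Cenpf, a kinetochore protein that accumulates in G2, had log2 levels of 10.87, 10.65, 10.63 and 10.68 in FoxD3-VP16 cells, 10.74, 10.43, 10.34 and 10.44 in FoxD3 cells and 10.98, 11.02, 10.56 and 10.71 in empty vector cells. FoxD3 lay below the empty vector in 4 of 4 numbers, with differences of -0.59 to -0.22 and overlap between the groups. The log2 change was -0.33 (limma adjusted p = 0.281 without and 0.0272 with the block). Leaving out arrays 2, 3 or 4 of FoxD3 or arrays 2 or 4 of the empty vector ended the call (adjusted p up to 0.0928). Of 2 further bright probe sets of Cenpf, 1 gave -0.43 and the other 0.20.

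Spindle motors and midzone proteins (Kif11, Kif20a, Kif23, Kif2c, Tpx2, Nusap1, Prc1 and Hmmr) build the spindle and the structure on which the cell divides. Against the empty vector, FoxD3-VP16 gave log2 changes of 0.13 for Kif11, -0.02 for Kif20a, -0.04 for Kif23, -0.07 for Kif2c, 0.09 for Tpx2, -0.01 for Nusap1, -0.22 for Prc1 and -0.20 for Hmmr. For FoxD3 against the empty vector the changes were -0.19 for Kif11, -0.08 for Kif20a, 0.07 for Kif23, -0.24 for Kif2c, -0.08 for Tpx2, -0.27 for Nusap1, -0.12 for Prc1 and -0.19 for Hmmr. FoxD3-VP16 against FoxD3 gave 0.32 for Kif11, 0.05 for Kif20a, -0.12 for Kif23, 0.17 for Kif2c, 0.18 for Tpx2, 0.26 for Nusap1, -0.09 for Prc1 and -0.02 for Hmmr. None of the 8 was called in either fit.

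Cdc20 and Ube2c, an activator and the ubiquitin-conjugating enzyme of the anaphase-promoting complex, and Top2a and Mki67, proteins of the mitotic chromosome, complete the list. FoxD3-VP16 against the empty vector gave log2 changes of -0.20 for Cdc20, -0.0028 for Ube2c, 0.13 for Top2a and -0.14 for Mki67. FoxD3 against the empty vector gave 0.11 for Cdc20, -0.07 for Ube2c, -0.09 for Top2a and -0.0023 for Mki67. For FoxD3-VP16 against FoxD3 the changes were -0.32 for Cdc20, 0.06 for Ube2c, 0.22 for Top2a and -0.13 for Mki67. Cdc20 was the one gene of the 4 called, between the constructs and with the block.

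Cdc20 had log2 levels of 12.24, 12.33, 12.38 and 12.30 in FoxD3-VP16 cells, 12.48, 12.67, 12.66 and 12.71 in FoxD3 cells and 12.18, 12.64, 12.67 and 12.59 in empty vector cells. Every FoxD3-VP16 array (up to 12.38) lay below every FoxD3 array (from 12.48), and the empty vector arrays overlapped both. The mean was 12.31 ± 0.06 with FoxD3-VP16 and 12.63 ± 0.10 with FoxD3 (SD, n = 4 each), 1.25-fold lower (log2 change -0.32, limma adjusted p = 0.146 without and 0.00611 with the block). With the block the call held without any 1 of the 12 arrays (adjusted p = 0.00263 to 0.0316), and 2 other bright probe sets gave -0.28 and -0.33. It was lost, at an adjusted p of 0.114, when the _x_at probe sets were left out, which put another of the 3 in its place.

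Top2a, the topoisomerase that untangles sister chromosomes, had log2 levels of 11.55, 12.28, 12.46 and 12.40 in FoxD3-VP16 cells, 11.43, 12.14, 12.12 and 12.14 in FoxD3 cells and 11.52, 12.74, 11.99 and 11.93 in empty vector cells. The array numbered 1 was the lowest of each group and the empty vector array numbered 2 the highest of all 12. Mki67, the source of the Ki-67 proliferation marker, had log2 levels of 11.31, 12.38, 12.82 and 12.75 in FoxD3-VP16 cells, 11.53, 12.63, 12.75 and 12.90 in FoxD3 cells and 11.61, 12.91, 12.69 and 12.60 in empty vector cells. Its groups overlapped almost wholly, and its log2 changes against the empty vector were -0.14 with FoxD3-VP16 and -0.0023 with FoxD3, with no call.

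Within replicate numbers the genes did not keep 1 direction against the empty vector. With FoxD3-VP16 against the empty vector the median log2 difference of the 58 genes was -0.11 in number 1, -0.45 in number 2, 0.08 in number 3 and 0.25 in number 4. With FoxD3 against the empty vector the medians were -0.13, -0.45, 0.01 and 0.13. The medians of all tested genes in these 8 pairs of arrays lay between -0.02 and 0.00095, a value that quantile normalization sets close to 0, so the differences are relative to the other genes on the same arrays. In number 2, 3 of 58 genes were higher with FoxD3-VP16 than with the empty vector and 4 of 58 with FoxD3, and in number 4, 52 and 48 of 58 were higher. The S phase and the G2/M genes did this alike: in number 2 the medians with FoxD3-VP16 were -0.46 and -0.45, and with FoxD3 -0.42 and -0.46.

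The 2 constructs share the empty vector array of each number, so a level of that array moves both differences. The mean log2 level of the 58 genes was 10.44, 10.65, 10.996 and 11.06 with FoxD3-VP16, 10.38, 10.63, 10.90 and 10.94 with FoxD3 and 10.56, 11.07, 10.87 and 10.77 with the empty vector. The empty vector array numbered 2 was the highest of these 12 values, and in both construct groups array 2 was the second lowest. With 1 array for each vector and number, whether the effect of a vector differed between numbers could not be tested. Without the empty vector array numbered 2, the block fit called 4 of 58 genes with FoxD3-VP16 (Rrm1, Tk1 and Top2a higher and Cdt1 lower), 2 with FoxD3 (Cdt1 and Mcm2 higher) and 8 between the constructs, where 13.5%, 21.6% and 32.9% of all tested genes were called.

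**Figure D3:**
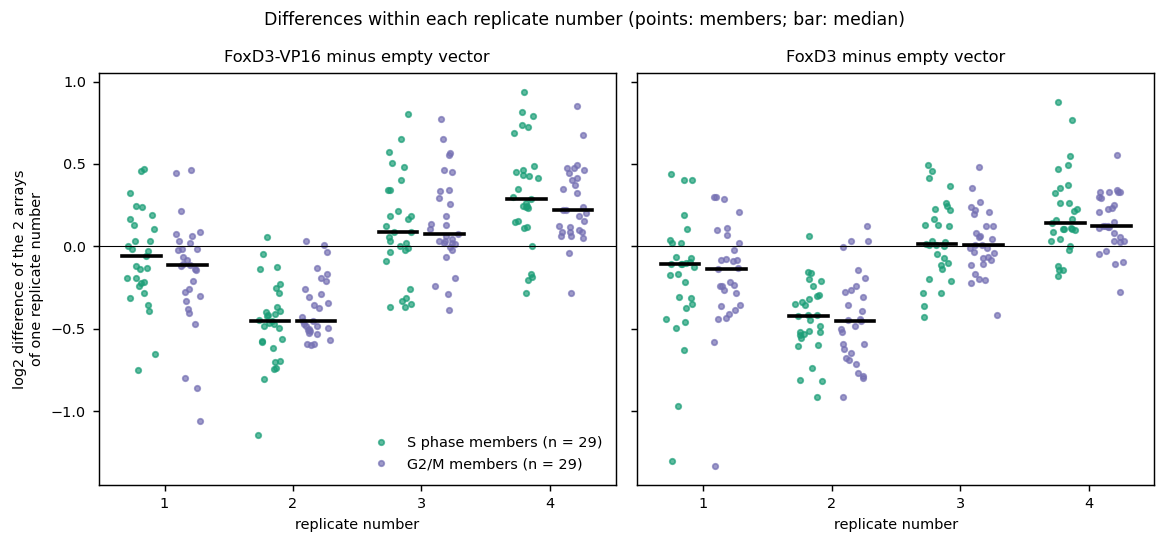
Each point is 1 of the 58 genes, as the log2 difference of the 2 arrays with the same replicate number, with S phase and G2/M genes in separate colours and a bar at the median. The points lie almost wholly below 0 in number 2 and mostly above 0 in number 4 for either construct against the empty vector.

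Counts of genes that kept their direction were accordingly low against the empty vector. With FoxD3-VP16, 5 of 58 genes (8.62%) had the same direction in 4 of 4 numbers, 2 higher and 3 lower, against 29.4% of all tested genes. With FoxD3, 10 of 58 (17.2%) did, 1 higher and 9 lower, against 41.2% of all. Between FoxD3-VP16 and FoxD3, 22 of 58 (37.9%) did, 16 higher and 6 lower, against 50.8% of all. Groups that did not overlap at all were found for 0 of 58 genes with either construct against the empty vector, where the shares of all tested genes were 5.71% with FoxD3-VP16 and 11.5% with FoxD3. Between FoxD3-VP16 and FoxD3 the groups were apart for 3 of 58 (5.17%), Cdt1 and Cdc20 lower and Prim1 higher, against 18.2% of all.

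The replicate number separated these genes more than the vector did. Of the 58 genes, 38 (65.5%) differed between the 4 numbers in limma's F test with the vector as a term, 19 S phase and 19 G2/M genes, against 53.6% of all tested genes. The number accounted for 83.2% of the sum of squares of the G2/M genes and the vector for 4.83%, for the S phase genes the shares were 63.5% and 11.3%, and for all tested genes 50.1% and 30.8%. In the arrays numbered 1 the median deviation from the mean of all arrays was -0.56 for the G2/M genes and -0.17 for the S phase genes. In numbers 2, 3 and 4 the medians were 0.13, 0.21 and 0.20 for the G2/M genes and -0.11, 0.15 and 0.14 for the S phase genes. Without the 3 arrays numbered 1, 4 of the 58 genes differed between the remaining numbers, and the share of all tested genes fell as well, to 14.9%.

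All 3 arrays numbered 1 lay below the 9 others for 22 of 58 genes, 16 G2/M and 6 S phase, where 14.4% of all tested genes did so. They lay above the 9 others for 3 of 58, all S phase genes (Mcm10, Fen1 and E2f1), where 12.5% of all did. Ube2c, the enzyme that feeds the anaphase-promoting complex, had the smallest p, with log2 levels of 10.28, 12.43, 12.21 and 12.43 in FoxD3-VP16 cells, 9.90, 12.37, 12.43 and 12.39 in FoxD3 cells and 10.35, 12.72, 12.23 and 12.06 in empty vector cells. Its means by number from 1 to 4 were 10.18 ± 0.24, 12.50 ± 0.19, 12.29 ± 0.12 and 12.29 ± 0.20 (SD, n = 3 each). The adjusted p in limma's F test between the numbers was 1.22e-07. The difference between number 1 and the mean of the others was -2.19.

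Cenpe, a kinetochore motor, had log2 levels of 8.72, 10.04, 10.25 and 10.49 in FoxD3-VP16 cells, 7.82, 10.0, 10.24 and 10.38 in FoxD3 cells and 8.26, 10.49, 10.25 and 10.27 in empty vector cells. Mad2l1, the checkpoint protein that inhibits Cdc20, had log2 levels of 10.87, 11.90, 12.35 and 12.44 in FoxD3-VP16 cells, 10.87, 11.79, 12.06 and 12.20 in FoxD3 cells and 10.85, 12.03, 12.02 and 11.98 in empty vector cells. Birc5, also called survivin, had log2 levels of 10.98, 11.88, 12.06 and 12.07 in FoxD3-VP16 cells, 10.88, 11.88, 12.05 and 12.17 in FoxD3 cells and 11.10, 12.07, 12.26 and 12.02 in empty vector cells. In all 3 genes, as in Ccnb2 and Mki67 above, the array numbered 1 of each group lay under every other array. Number 1 minus the others was -2.00 for Cenpe, -1.25 for Ccnb2, -1.23 for Mki67, -1.22 for Mad2l1 and -1.07 for Birc5. The adjusted p of these genes in limma's F test between the numbers was 9.28e-07 to 4.32e-06.

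**Figure D4:**
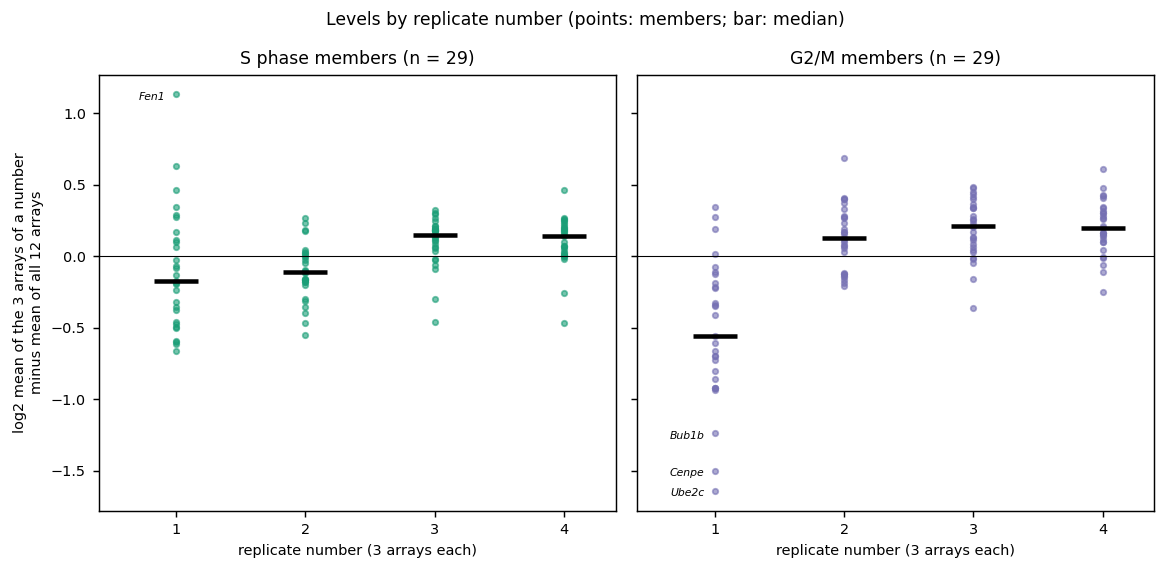
Each point is 1 gene, as the mean log2 level of the 3 arrays of a replicate number minus the mean of all 12 arrays, with the median as a bar, for S phase genes on the left and G2/M genes on the right. The G2/M genes lie mostly below 0 in number 1, with Ube2c, Cenpe and Bub1b the lowest, and mostly above 0 in the other numbers, whereas among the S phase genes Fen1 lies far above 0 in number 1.

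Technical measures of the arrays moved with the same numbers. For the arrays numbered 1, against the range of the means for numbers 2 to 4, the mean log2 level of the hybridization controls was 14.7 against 11.9 to 13.0 and that of the 18S ribosomal probe sets 12.9 against 9.60 to 9.95. The 3' minus 5' difference of the Gapdh probe sets, a sign of RNA quality or of the length of the amplified product, was 0.66 ± 0.10 against -0.18 to -0.01, and that of actin 1.8 ± 0.20 against 1.48 to 1.54. The part of these measures in the number differences was not tested, and what the numbers stand for is not given in the labels.

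Other probe sets of the same genes did not always follow the brightest. The 58 genes have 132 probe sets, 114 of them above the brightness limit, and 38 genes have more than 1 above it. The second brightest had the sign of the brightest in 24 of 38 genes with FoxD3-VP16 against the empty vector, 29 with FoxD3 against the empty vector, 24 between the constructs and 29 for number 1 against the others. Fen1 is an example: its brightest probe set was 1.51 higher in number 1 than in the others, and its second bright one -0.11. Cenpe and Bub1b kept the direction with smaller size, -0.51 and -0.72 in a second bright probe set against -2.00 and -1.65 in the brightest. A further probe set of Bub1b above the limit, with a mean log2 level of 6.59, went the other way, at 0.54.

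Further genes of the same pathways, from lists chosen by function, were read from the same fit. Of 52 other S phase genes tested, without the block 0 were called with FoxD3-VP16 and 1 with FoxD3 against the empty vector, and 1 between the constructs. These were 0%, 1.92% and 1.92%, against 0.595%, 4.01% and 9.57% of all tested genes. With the block the counts were 5 (2 higher, 3 lower), 7 (1 higher, 6 lower) and 8 (5 higher, 3 lower). These were 9.62%, 13.5% and 15.4%, against 11.1%, 21.0% and 32.0% of all tested genes. The median log2 changes were -0.09, -0.11 and 0.04. Atad2, a chromatin protein that works with E2F, was the gene called without the block with FoxD3 (log2 change -0.51, limma adjusted p = 0.0426), and Tfdp1, the partner of E2F proteins, the one called between the constructs (-0.58, limma adjusted p = 0.0241). Like Cdt1, Tfdp1 lay lower with FoxD3-VP16 (-0.30, limma adjusted p = 0.517 without and 0.0384 with the block) and higher with FoxD3 (0.28, limma adjusted p = 0.384 without and 0.0338 with the block) than with the empty vector. With FoxD3-VP16 against the empty vector the largest changes called with the block were those of the kinase Cdk2 (-0.54), the single-strand binding subunits Rpa3 (0.47) and Rpa1 (0.38), and Rad51ap1 (-0.40). Between the constructs they were those of the transcription factor E2f2 (-1.0), Tfdp1, Rpa3 (0.52) and Rpa1 (0.45).

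Of 60 other G2/M genes tested, 0 were called without the block in any comparison. An unadjusted limma p under 0.05 was found for 2 with FoxD3-VP16 against the empty vector, 4 with FoxD3 against it and 3 between the constructs. Of all 10916 tested genes, 1129, 1762 and 2516 had such a p in that order. The shares of all tested genes called without the block were 0.595%, 4.01% and 9.57% in that order. With the block the counts were 3 (1 higher, 2 lower) with FoxD3-VP16 and 7 (all lower) with FoxD3 against the empty vector, and 8 (5 higher, 3 lower) between the constructs. These were 5%, 11.7% and 13.3%, against 11.1%, 21.0% and 32.0% of all tested genes. The median log2 changes were -0.07, -0.12 and 0.06. The largest of these changes was that of Pttg1, securin, which holds the protease of anaphase in check, at 1.01 with FoxD3-VP16 against the empty vector (limma adjusted p = 0.303 without and 0.000104 with the block) and 1.07 against FoxD3 (limma adjusted p = 0.0738 without and 5.61e-06 with the block), higher in 4 of 4 numbers in both. With FoxD3 against the empty vector the largest changes called with the block were those of Mastl (-0.63), Sgo1 (-0.61), Tmpo (-0.53) and Anln (-0.47), a mitotic kinase, a guardian of cohesion, a lamina protein and an actin-binding protein of cell division. Between the constructs they were, after Pttg1, those of Mastl (0.56), the lamin B receptor Lbr (-0.34) and Cdc25a (-0.34), a phosphatase that activates cyclin-dependent kinases.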

How the data were processed

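The authors deposited linear intensities for 45101 probe sets on each of the 12 arrays, and the submitters' processing notes name MAS5 without a version. A mean taken after removing 2% of the probe sets at each end was 500.003 to 500.004 on every array, so the authors had scaled all arrays to one target. With 4 arrays per group, their number limits the precision.

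Intensities were moved to a log2(intensity + 16) scale, on which changes of dim genes come out too small. They were then quantile normalized, since array medians differed by up to 0.79. Probe sets were named by the platform annotation, in which 34958 carried a single symbol, 932 more than 1 symbol and 9160 no entry, and 64 controls were set aside. The probe set with the highest mean stood for each of 18193 genes, and the dimmest 40% of genes (mean log2 level below 5.98) were not tested. All 12 arrays entered 1 fit by limma's lmFit and eBayes with a trend by intensity (limma 3.58.1, R 4.3.3). This was done without a block (9 residual and 3.98 prior degrees of freedom) and with a block for the replicate number (6 and 7.30). Adjustment was by Benjamini-Hochberg over 10916 genes. An F test compared replicate numbers, with the vector as a term. The script was tested on simulated data, and figures were made in Python 3.11.15 (matplotlib 3.10.9).

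The replicate numbers were taken to pair the arrays. Deviations from group means correlated at 0.37 to 0.67 in the 12 pairs with one number, 0.37 to 0.54 in 6 pairs joining numbers 3 and 4, and -0.51 to 0.12 in 30 other pairs. The pairing comes from this correlation alone, since no label says what a number stands for.

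The genes, lists, roles and motifs were chosen with earlier results of these data known. Each of the 58 genes is given with its log2 changes. Array values are given for genes called in either fit, for Mcm2, Cdc6, Cdt1, Pcna, Rrm2, E2f1, Cdk1, Foxm1, Plk1, Top2a and Mki67, and for the 6 with the smallest p between numbers. Of the other S phase and G2/M genes, up to 4 called genes per list and comparison are named. Alternatives were the scaling, the pseudocount, the brightness filter, the choice of probe set, array weights, the arrays fitted and the block.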

Additional observations from a re-analysis of the deposited data

Results flagged for a closer look

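In each group of 4 arrays, the highest or lowest log2 level of a gene was set against the others by Dixon's ratio of its gap to the range at its 95% critical value for 4 values. Of 180 groups of 4 examined (the genes described above and their 2 list means, for each vector), 27 had an array past that value, where chance alone gives about 1 in 20, or 9. The array numbered 1 was the one apart in 21 of the 27 and the array numbered 2 in the other 6.

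With FoxD3-VP16, array 1 was low in Ccnb2 (10.63, the others 11.72 to 11.89), Cdk1 (11.65, the others 12.36 to 12.48), Kif20a (9.019, the others 10.34 to 10.60), Rfc4 (9.859, the others 10.61 to 10.69) and Ube2c (10.28, the others 12.21 to 12.43). With FoxD3, array 1 was low in Bub1b (8.957, the others 10.22 to 10.46), Ccnb2 (10.31, the others 11.68 to 11.81), Cenpe (7.82, the others 10.00 to 10.38) and Nusap1 (9.802, the others 10.66 to 10.81). It was also low in Rfc4 (9.883, the others 10.67 to 10.81), Top2a (11.43, the others 12.12 to 12.14) and Ube2c (9.903, the others 12.37 to 12.43), and it was high in Fen1 (12.78, the others 11.17 to 11.35). With the empty vector, array 1 was low in Ccnb2 (10.55, the others 11.60 to 11.69), Cenpa (10.40, the others 11.20 to 11.33), Cenpe (8.256, the others 10.25 to 10.49) and Mad2l1 (10.85, the others 11.98 to 12.03). It was also low in Mcm5 (12.15, the others 12.76 to 12.83), Orc6 (9.826, the others 10.58 to 10.69), Rrm1 (11.45, the others 11.82 to 11.87) and Tpx2 (9.69, the others 10.97 to 11.19).

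Array 2 was the one apart in S phase genes. With FoxD3-VP16 it was low in Cdc6 (8.618, the others 10.00 to 10.28), Mcm3 (10.96, the others 11.68 to 11.76) and Orc1 (7.764, the others 8.47 to 8.53). With FoxD3 it was low in Rrm2 (12.78, the others 13.35 to 13.43). With the empty vector it was high in Cdc45 (9.692, the others 9.04 to 9.11) and Tk1 (10.59, the others 9.89 to 10.01).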

How the results depend on the processing

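The 3 counts of called genes without the block were 0 (FoxD3-VP16 against the empty vector), 0 (FoxD3 against the empty vector) and 1 (FoxD3-VP16 against FoxD3). They were 2 (0 higher, 2 lower), 5 (1 higher, 4 lower) and 5 (3 higher, 2 lower) in the fit that took the replicate number as a block. With array quality weights they were 10 (7 higher, 3 lower), 7 (6 higher, 1 lower) and 8 (6 higher, 2 lower) of 58. Those weights were 0.17 to 0.18 for the arrays numbered 1 and 0.31 to 0.82 for those numbered 2. For the arrays numbered 3 and 4 they were 1.89 to 5.51. The weighted fit called 31.7%, 38.4% and 40.8% of all tested genes. The count between the constructs was 0 with the mean of all probe sets (8.41% of all tested genes called), 2 without the arrays numbered 1 (16.6%) and 0 without those numbered 2, 3 or 4 (7.57%, 2.47% and 1.75%). It was 0 or 1 when single arrays were left out (5.51% to 11.1%).

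In the block fit, no filter on dim genes left 1 called gene for FoxD3-VP16 and 3 for FoxD3 against the empty vector, where 5.23% and 10.9% of all genes were called. The mean of all probe sets left 0 and 2 against the empty vector and 2 between the constructs (6.78%, 14.8% and 24.8% of all genes), and without _x_at probe sets 3 were called between the constructs (32.0%). That mean also turned the sign of 2 values, to a log2 change of 0.038 for Pola1 with FoxD3 against the empty vector (adjusted p = 0.93) and -0.030 for Mcm6 between the constructs (adjusted p = 0.911). The mean takes in probe sets under the brightness limit, which gave 0.42 for Pola1 and -0.69 for Mcm6 in these comparisons. The bright probe set of Pola1 gave -0.34, and those of Mcm6 gave 0.25 and 0.35. The cause of the changes in count was not tested. Without the arrays numbered 1, the block fit called 1 gene with FoxD3 against the empty vector (18.2% of all genes) and 3 between the constructs (30.7%). It called 2 with FoxD3 without those numbered 2 (18.3%). Without those numbered 3 it called 0 with FoxD3-VP16, 0 with FoxD3 and 3 between the constructs (2.46%, 12.5% and 22.8% of all genes), and without those numbered 4, 0, 2 and 2 (1.8%, 9.88% and 19.6%). Leaving out single arrays gave 0 to 4 for FoxD3-VP16 (3.67% to 13.5% of all genes), 0 to 5 for FoxD3 (12.6% to 24.1%) and 2 to 8 between the constructs (23.0% to 34.8%), and fewer arrays also mean wider intervals. The count of 38 genes that differed between numbers was 4 without the arrays numbered 1 (14.9% of all genes) and 30 to 45 under the other 20 alternatives. In the 12 of these that left out single arrays, 48.0% to 52.2% of all tested genes differed between numbers, against 53.6% in the main fit. The 6 list medians of the 3 comparisons moved by less than the spread between replicates under all 25 alternatives, but 5 of the 6 crossed 0 under at least 1 of them, the exception being the S phase genes between the constructs (0.01 to 0.17). Some settings were chosen after seeing the data, namely the block fit combined with another choice and leaving out the arrays numbered 2, 3 or 4, or for the number differences those numbered 1. With 4 arrays per group, a gene with an interval of the median half-width with the block, 0.27, has a change under that size that cannot be told from 0. Since the interval is not adjusted for the number of genes tested, larger changes can also go without a call.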
